A study of Mus musculus with 4 samples.

Results

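The amino acid transporter genes of the solute carrier (Slc) families 1, 3, 6, 7, 36, 38 and 43 were followed in macrophages cultured with necrotic fat. Genes were taken by symbol from the deposited values, as every numbered member of Slc1a, Slc3a, Slc6a, Slc7a, Slc36a, Slc38a and Slc43a except Slc7a2 and Slc7a11, which gave 47 of the 17013 genes listed. The cells were bone marrow-derived macrophages of wild-type male C57BL/6 mice, grown in M-CSF and then seeded on porous transwell inserts. Medium from freeze-thawed, collagenase-digested abdominal fat was placed under the insert, and artificial necrotic bone fluid (aNBF), a freeze-thaw extract of bone that stands for the osteonecrotic environment, was added above the cells in both groups. In the fat control medium (Con) the fat preparation was its middle layer, and in the high-fat-containing medium (Fat) it was the top fat layer. RNA was collected after 24 h from 2 libraries per medium, and the comparison asks how the macrophage transcriptome differed when fat was there to be taken up. No culture without aNBF or without either layer was analysed here, the mice were male only, and no age of these mice was given in the sources used here. Nothing in the labels says that the replicates of a medium came from separate animals or cultures, so the p-values measure only the spread between these libraries, which may be technical.

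Amino acids cross membranes through carriers that differ in what drives them. The Slc1a and Slc38a proteins and most Slc6a proteins move amino acids or related compounds with sodium. Some Slc36a proteins use protons, and the Slc43a proteins carry their substrates down a gradient. Several Slc7a proteins are light chains that reach the cell surface only when bound to a heavy chain of the Slc3a family, and they exchange one amino acid for another. Some of these carriers sit in the lysosome, where macrophages break down what they have engulfed, and there they let amino acids out or report them to the growth regulator mTORC1. The families are named for sequence, so a few members carry other compounds, among them creatine, taurine, serotonin and nucleobases.

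The libraries held 33573852 and 37881292 reads in Con and 37534565 and 40785872 reads in Fat, and a single read was worth between 0.0244 and 0.0295 CPM (read counts scaled by library size). Limits drawn from read numbers cover counting error only, since no molecular identifiers tell copies of a molecule apart. All 12 macrophage markers checked were detected, with a summed level of 41665 to 44095 CPM in Con and 33236 to 34981 CPM in Fat, and 5 of them were called lower in Fat, as were 5.0% of all genes tested. Of 14 adipocyte markers, 12 were picked out as near 0 in Con, a choice that favours a rise in Fat. These 12 had 7 and 9 reads in all in Con, and 486 and 282 reads in all in Fat replicates 1 and 2. Summed over all 14, the markers were at 209.5 and 228.7 CPM in Con and 209.3 and 201.0 CPM in Fat, with no rise. Most of this sum came from Fabp4 and Lipe, the markers outside the 12, so it says little of the 12. Of the 14, 5 could be tested, and 3 (60%) were called higher and 0 lower in Fat, beside 9.0% of all genes called. Markers of the 12 could be tested only through their reads in Fat, which favours such calls. Summed fibroblast and stroma markers were at 614 and 638 CPM in Con and 513 and 657 CPM in Fat. The cells were bulk samples, so fewer cells of a type and less RNA per cell cannot be told apart.

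Of the 32 carriers with enough reads to test, 1 passed the test, the creatine transporter Slc6a8, which rose by 30.0% in mean CPM from Con to Fat. The carriers with the next smallest p-values were Slc38a2 and the taurine transporter Slc6a6, both at higher values in Fat, and Slc43a3, at lower values in Fat. None of these 3 passed the test. The large neutral and cationic exchangers and their heavy chain Slc3a2, the Slc36a carriers and the glutamate and neutral exchangers gave no call either way.

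Of the 47 carriers, 32 reached 0.5 CPM in 2 or more of the 4 libraries and entered limma on log2(CPM + 0.1) together with all other genes above that level, p-values being adjusted over all of them by Benjamini-Hochberg. A gene was called when its adjusted p fell under 0.05. By that rule limma called 1 of the 32 (3.125%) higher in Fat and 0 lower, while 9.0% of the 12470 genes tested were called, 3.99% higher and 5.0% lower. At an unadjusted limma p-value under 0.05 there were 3 carriers higher and 1 lower, beside 24.1% of all genes in either direction. edgeR's quasi-likelihood test called 1 higher and 0 lower, and DESeq2 called 2 higher and 0 lower. Both Fat libraries lay above both Con libraries for 11 carriers and below them for 5, which is 50% of the 32, and the same held for 55.6% of all genes tested. The median log2 fold change of the 32 was 0.04, against 0.01 over all genes tested, and the median of its size without sign was 0.11 against 0.12.

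Precision was set by level. For the 20 carriers with a mean of at least 5 CPM the 95% interval of the log2 fold change reached between 0.12 and 0.25 to either side, and for the 12 below that mean between 0.37 and 0.95. In 19 of the 32 the whole interval lay within 0.5 of 0 on the log2 scale, and in 29 it lay within 1. Among all genes tested these shares were 69.9% and 92.2%. The 3 carriers whose interval passed 1 were Slc6a13, Slc6a17 and Slc38a4, each with at most 61 reads in a library.

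**Figure D1:**
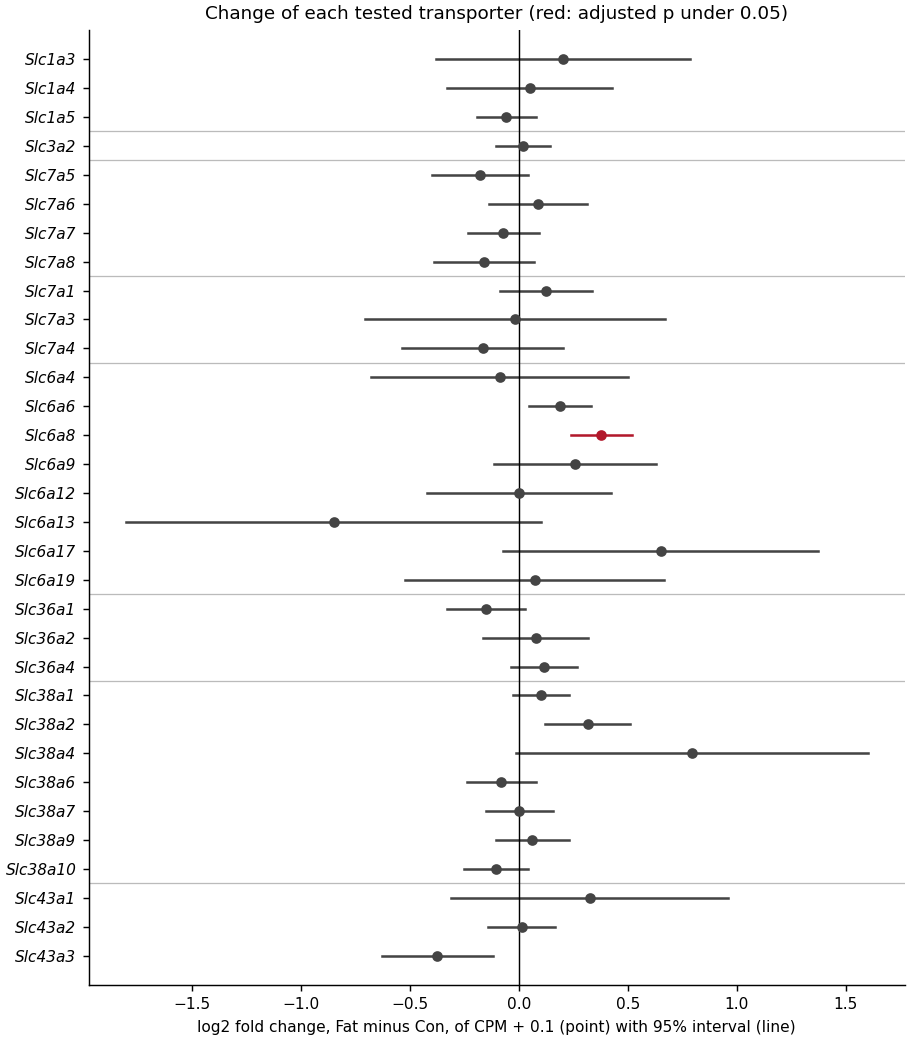
Log2 fold change of CPM + 0.1, Fat minus Con, for the 32 tested carriers, with the limma estimate as a point and its 95% interval as a line; grey lines separate the role groups. The interval of Slc6a8, in red, ran from 0.24 to 0.52 and was the only one called.

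To compare carriers with each other, levels were read as TPM, which is scaled for gene length. Slc6a6 had the highest level, with 279 and 275 TPM in Con and 324 and 322 TPM in Fat. Next came Slc3a2, the shared heavy chain known as CD98, with a median of 188 TPM over the 4 libraries, then Slc43a2, a carrier of large neutral amino acids, with 162 TPM, and Slc6a8, with 117 TPM. The ranges of these 4 genes did not overlap, and together they held between 60.4% and 63.9% of the summed TPM of the carriers in each library.

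The carriers behind them were closer together. Slc38a10 (median 63.5 TPM) and Slc36a1 (63.1 TPM) overlapped, as did Slc7a8 (50.6 TPM) with Slc36a4 (46.5 TPM) and Slc36a4 with Slc1a5 (41.9 TPM). Slc38a2 (34.8 TPM), Slc38a6 (29.2 TPM) and Slc38a7 (27.6 TPM) also overlapped in that order. The summed TPM of all 47 carriers was 1200 and 1174 in Con and 1288 and 1269 in Fat. Slc6a6 and Slc6a8 were abundant and at higher values in Fat, so leaving them out narrows the gap by that choice alone. Without them the sum was 824 and 796 TPM in Con and 828 and 817 TPM in Fat, with overlapping ranges.

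**Figure D2:**
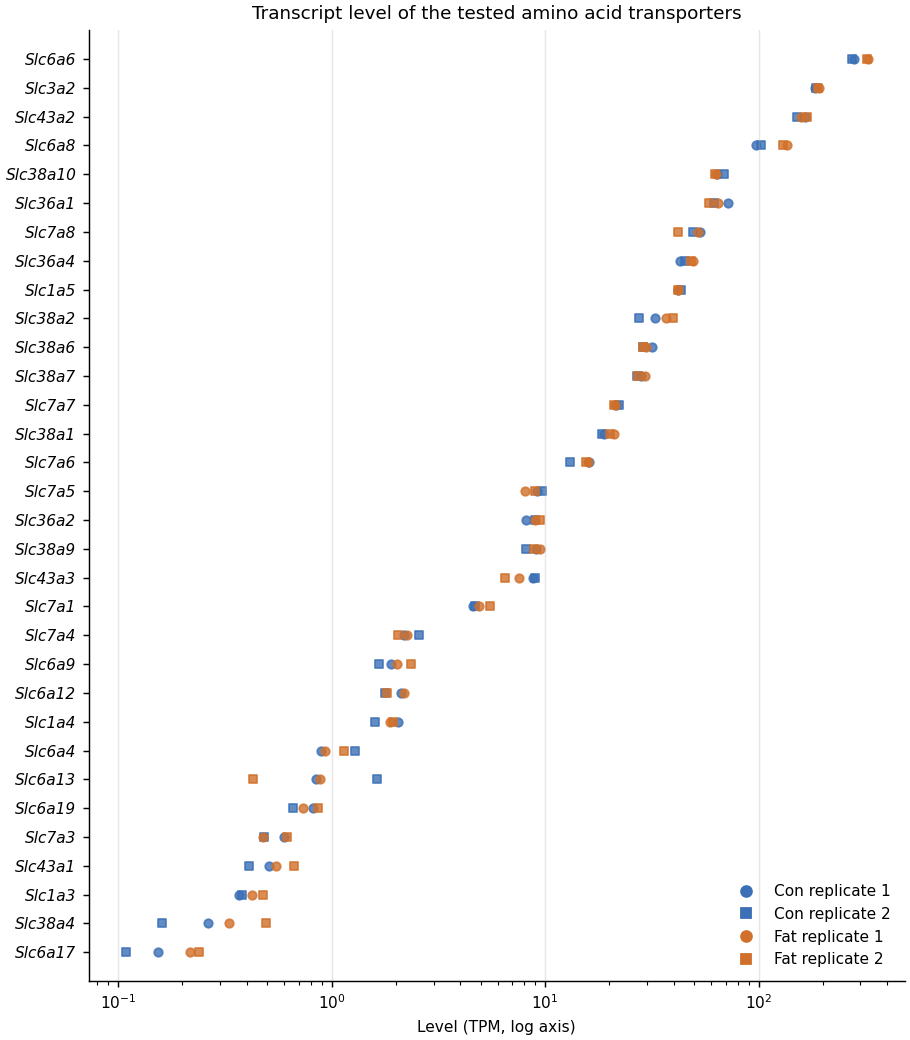
TPM of the 32 tested carriers in each library on a log axis, ordered by mean TPM; blue marks are Con and orange marks are Fat, with circles for replicate 1 and squares for replicate 2. Slc6a6, at 275 to 324 TPM, lay above all other carriers in each library, and its Fat marks lay to the right of its Con marks.

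The Slc6a family, whose members use sodium and chloride, held the carrier that passed the test. Slc6a8 imports creatine, the store of high-energy phosphate. It had 178 and 191 CPM in Con and 245 and 234 CPM in Fat, so both Fat libraries were above both Con libraries. Means were 184 ± 9.38 CPM in Con and 240 ± 7.25 CPM in Fat (SD, n = 2 each). The log2 fold change was thus 0.38 (standard error 0.06, 95% interval 0.24 to 0.52, limma adjusted p = 0.0120). Leaving out each library in turn gave values between 0.33 and 0.43. Without limma's mean-variance trend its adjusted p was 0.106, and under each other alternative it was called. Slc6a8 encodes no carrier of a protein-building amino acid.

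Slc6a6 imports taurine, a sulfur-containing osmolyte. Its level was 786 and 791 CPM in Con and 901 and 896 CPM in Fat, and the replicates of each medium were within 6 CPM of each other. That gap gave a log2 fold change of 0.19 (95% interval 0.05 to 0.33, limma adjusted p = 0.107), which was not called. Adjusted p-values over its alternatives lay between 0.0585 and 0.335, and none of them called it.

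The other Slc6a members that were tested were low. Slc6a9, a glycine carrier, had 2.83 and 2.53 CPM in Con and 3.0 and 3.46 CPM in Fat (log2 fold change 0.26, 95% interval -0.11 to 0.63, adjusted p = 0.376). For Slc6a9, 26.8% of its transcript stretches of 75 bases were also found in other genes, chiefly in Ccdc24 on the opposite strand, so its reads are uncertain. Slc6a12, a carrier of betaine and GABA, had 2.48 and 2.13 CPM in Con and 2.52 and 2.10 CPM in Fat, with media that overlapped (0.00, 95% interval -0.42 to 0.42). Slc6a4, the serotonin transporter, had 38 and 62 reads in Con and 43 and 58 in Fat (-0.09, 95% interval -0.68 to 0.50), again overlapping.

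Slc6a13, another GABA carrier, had 28 and 61 reads in Con and 32 and 17 in Fat (log2 fold change -0.85, 95% interval -1.80 to 0.10, adjusted p = 0.257), so a single high Con library and a single low Fat library spread its values. Slc6a17, known from synaptic vesicles, had 15 and 12 reads in Con and 23 and 28 in Fat (0.65, 95% interval -0.07 to 1.37, adjusted p = 0.253). Slc6a19, a neutral amino acid carrier of gut and kidney, had 31 and 28 reads in Con and 30 and 39 in Fat (0.07, 95% interval -0.52 to 0.67). The intervals of Slc6a13, Slc6a17 and Slc6a19 reached 0.95, 0.72 and 0.59 to either side, so smaller changes were not detectable at these read numbers.

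**Figure D3:**
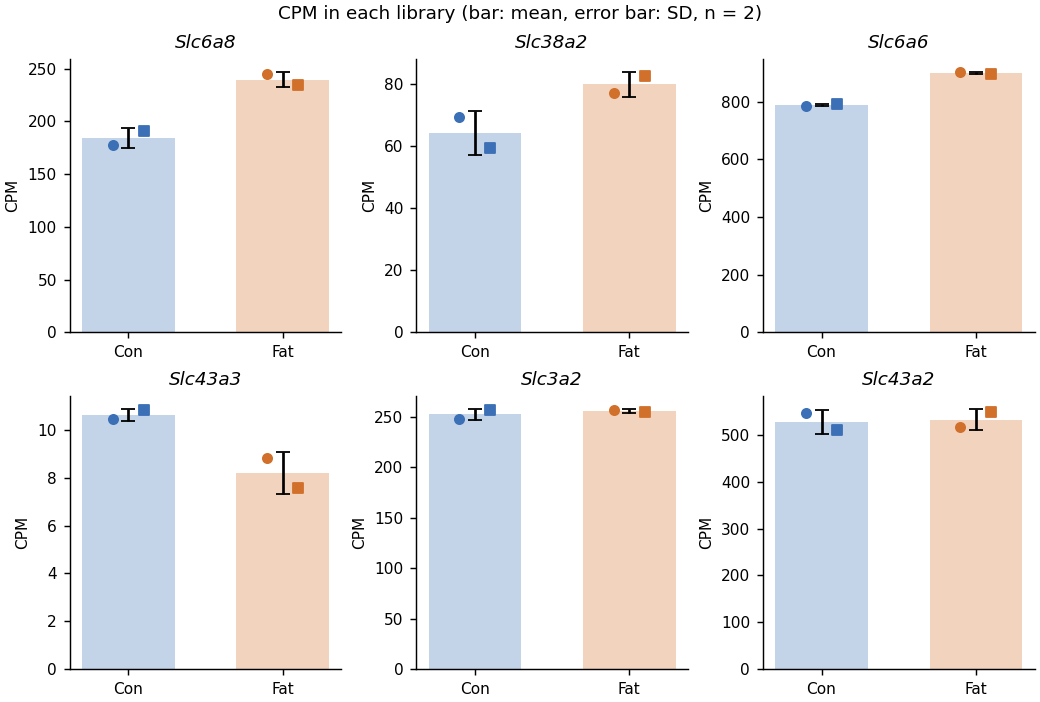
CPM in each library for Slc6a8, Slc38a2, Slc6a6, Slc43a3, Slc3a2 and Slc43a2, with bars for the mean and error bars for the SD of 2 libraries; circles are replicate 1, squares replicate 2, and each axis starts at 0. The Fat marks of Slc6a8, Slc38a2 and Slc6a6 lay above their Con marks, those of Slc43a3 lay below, and those of Slc3a2 and Slc43a2 overlapped with Con.

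The Slc38a family imports small neutral amino acids with sodium, and some of its members work in the lysosome. Slc38a2 is known for being raised by amino acid shortage and by hypertonic stress. Its values were 69.3 and 59.3 CPM in Con and 77.1 and 82.7 CPM in Fat, with no overlap between the media. With means of 64.3 ± 7.12 CPM in Con and 79.9 ± 3.97 CPM in Fat (SD, n = 2 each), the log2 fold change was 0.32 (standard error 0.08, 95% interval 0.12 to 0.51, limma adjusted p = 0.0597), just outside the threshold. Its call depended on the setting and on 1 library: without Con replicate 1 it was called (0.43, adjusted p = 0.0135), while without Con replicate 2 it was 0.20 (adjusted p = 0.154). DESeq2 on the recovered reads called it as well (adjusted p = 0.0353), and edgeR did not (adjusted p = 0.0641).

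The closest relative of Slc38a2 by function, Slc38a1, had 72.4 and 72.2 CPM in Con and 79.2 and 76.1 CPM in Fat (log2 fold change 0.10, 95% interval -0.03 to 0.23, adjusted p = 0.308). Its Fat values were above Con in each library, without passing the test. Slc38a4, mainly a liver carrier, had 16 and 11 reads in Con and 22 and 36 in Fat (0.79, 95% interval -0.01 to 1.599, adjusted p = 0.215).

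The lysosomal members overlapped between media. Slc38a9, which senses arginine inside the lysosome for mTORC1, had 36.9 and 33.6 CPM in Con and 37.9 and 35.7 CPM in Fat (log2 fold change 0.06, 95% interval -0.11 to 0.23). Slc38a7, which lets glutamine out of the lysosome, had 42.2 and 41.4 CPM in Con and 43.6 and 40.2 CPM in Fat (0.00, 95% interval -0.15 to 0.16). For both, the interval left room only for changes smaller than 0.25.

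Slc38a10 was at 157 and 174 CPM in Con and 155 and 153 CPM in Fat, the reverse order of Slc38a1 (log2 fold change -0.10, 95% interval -0.25 to 0.04, adjusted p = 0.367). Slc38a6 had 43.05 and 39.5 CPM in Con and 39.8 and 38.3 CPM in Fat (-0.08, 95% interval -0.24 to 0.08). Its reads are uncertain, since 43.8% of its stretches were also found in other genes, chiefly Noct.

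Among the Slc36a carriers, Slc36a1 exports small amino acids from the lysosome. It had 173 and 153 CPM in Con and 153 and 139.9 CPM in Fat, with Con replicate 2 and Fat replicate 1 nearly level (log2 fold change -0.15, 95% interval -0.33 to 0.03, adjusted p = 0.279). Slc36a4 had 37.7 and 40.7 CPM in Con and 42.9 and 42.0 CPM in Fat (0.11, 95% interval -0.04 to 0.27, adjusted p = 0.337), higher in both Fat libraries. Slc36a2 had 9.02 and 10.2 CPM in Con and 9.81 and 10.4 CPM in Fat, which overlapped (0.08, 95% interval -0.16 to 0.32).

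Promoter windows of RefSeq, on build GRCm38.p6, reached from 250 bases before to 50 bases after a gene's start and were matched by symbol for 33 of the 47 carriers and 23 of the 32 tested. They were searched on both strands for TGATGNAA, the core of the amino acid response element that ATF4 binds with C/EBP partners, and for the E-box CACGTG, which reads the same on both strands and is contained in sites of the lysosomal regulator TFEB and of MYC. TGATGNAA was in the windows of 2 of the 33 carriers (6.06%), Slc1a4 and Slc7a7, and in those of 4.51% of 27025 genes. CACGTG was in the windows of 5 carriers (15.2%), Slc1a6, Slc1a7, Slc36a1, Slc38a7 and Slc43a1, and of 8.09% of all genes. The window of Slc38a2 held neither motif, but sequence outside the windows, such as introns, was not searched. Whether Slc38a2 holds either motif elsewhere is therefore not known from these windows. A match or its absence in these windows also says nothing of binding.

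Printed here, because they show the carrier with the second smallest p-value beside carriers that hold a motif and were not called, are the windows of Slc38a2 (chr15:96699699-96699978, minus strand), Slc1a4 (chr11:20332684-20332963, minus strand), Slc36a1 (chr11:55204090-55204369, plus strand) and Slc38a7 (chr8:95853462-95853741, minus strand). Each run goes 5′ to 3′ on the gene's strand from 250 bases before to 30 bases after the start, with the motif in capitals; in Slc1a4 the capitals are TGATGNAA read from the other strand, and in Slc36a1 and Slc38a7 they are CACGTG.
Slc38a2: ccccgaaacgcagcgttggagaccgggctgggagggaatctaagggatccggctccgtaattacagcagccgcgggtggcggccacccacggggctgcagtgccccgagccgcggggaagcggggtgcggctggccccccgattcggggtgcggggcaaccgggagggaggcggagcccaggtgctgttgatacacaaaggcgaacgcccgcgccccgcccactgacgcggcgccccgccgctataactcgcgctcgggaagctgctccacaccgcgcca
Slc1a4: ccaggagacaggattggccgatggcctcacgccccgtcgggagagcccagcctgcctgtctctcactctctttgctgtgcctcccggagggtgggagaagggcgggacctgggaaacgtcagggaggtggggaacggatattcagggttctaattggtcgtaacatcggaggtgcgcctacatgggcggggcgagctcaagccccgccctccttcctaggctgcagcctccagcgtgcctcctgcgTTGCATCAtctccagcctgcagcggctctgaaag
Slc36a1: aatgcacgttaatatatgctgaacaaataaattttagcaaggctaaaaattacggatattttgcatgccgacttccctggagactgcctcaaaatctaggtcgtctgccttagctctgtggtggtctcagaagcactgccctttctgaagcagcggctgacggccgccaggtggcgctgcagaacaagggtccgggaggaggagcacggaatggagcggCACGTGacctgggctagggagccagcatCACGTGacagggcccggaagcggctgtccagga
Slc38a7: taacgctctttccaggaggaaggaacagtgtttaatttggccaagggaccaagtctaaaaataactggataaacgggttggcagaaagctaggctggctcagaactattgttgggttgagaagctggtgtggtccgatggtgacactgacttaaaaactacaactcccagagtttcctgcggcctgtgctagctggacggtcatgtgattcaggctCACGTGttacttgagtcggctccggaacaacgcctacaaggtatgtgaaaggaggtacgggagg

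The first CACGTG of Slc36a1 begins 31 bases and the second 3 bases before the annotated start, and that of Slc38a7 begins 34 bases before it. Both genes were measured at more than 40 CPM in every library and had log2 fold changes of -0.15 and 0.00. The reversed TGATGNAA of Slc1a4 spans the start.

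The heteromeric exchangers pair a light chain of Slc7a with the heavy chain Slc3a2. Slc3a2 itself had 248 and 256 CPM in Con and 257 and 254 CPM in Fat, with overlap, and its log2 fold change of 0.02 had a 95% interval of -0.10 to 0.14. Slc7a5, the light chain LAT1 that brings in leucine and other large neutral amino acids, had 14.7 and 15.8 CPM in Con and 12.7 and 14.2 CPM in Fat (-0.18, 95% interval -0.40 to 0.04, adjusted p = 0.303). It was lower in both Fat libraries without passing the test.

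Slc7a8, the light chain LAT2 with a broader choice of neutral amino acids, had 98.4 and 92.2 CPM in Con and 94.8 and 76.6 CPM in Fat (log2 fold change -0.16, 95% interval -0.39 to 0.07, adjusted p = 0.373). Fat replicate 2 was the low library, and without Fat replicate 1 the gene was called lower (-0.31, adjusted p = 0.0489), whereas without Fat replicate 2 the value was -0.01. Slc7a7, which exports cationic amino acids in exchange for neutral ones, had 24.5 and 25.8 CPM in Con and 24.1 and 23.8 CPM in Fat (-0.07, 95% interval -0.23 to 0.09). Slc7a6, its closest relative, had 27.3 and 22.6 CPM in Con and 26.8 and 26.1 CPM in Fat, where Con replicate 2 alone was low (0.09, 95% interval -0.14 to 0.31).

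Summed over Slc7a5, Slc7a6, Slc7a7 and Slc7a8, the light chains were at 99.9 and 93.8 TPM in Con and 97.3 and 87.5 TPM in Fat, against 184 and 186 TPM of Slc3a2 in Con and 193 and 190.4 TPM in Fat. The ratio of light chains to Slc3a2 was therefore 0.544 and 0.505 in Con and 0.505 and 0.460 in Fat, below 1 in each library. The media overlapped in this ratio, with Con replicate 2 and Fat replicate 1 nearly level. With Slc7a11, a light chain outside the 47 genes, the ratio was 0.699 and 0.632 in Con and 0.690 and 0.630 in Fat. The media overlapped here too.

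In the cationic branch of Slc7a, which needs no heavy chain, Slc7a1 imports arginine and lysine. It had 15.1 and 15.8 CPM in Con and 15.8 and 17.9 CPM in Fat (log2 fold change 0.12, 95% interval -0.09 to 0.33, adjusted p = 0.463). Slc7a4 had 3.21 and 3.87 CPM in Con and 3.30 and 2.98 CPM in Fat (-0.17, 95% interval -0.53 to 0.20), and 13.3% of its exon bases overlap P2rx6 on the opposite strand. Slc7a3, a second arginine importer, had 22 and 20 reads in Con and 19 and 27 in Fat (-0.02, 95% interval -0.71 to 0.67), so the media overlapped at a level where little could be resolved.

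In the Slc1a family, Slc1a5, the neutral exchanger ASCT2 that carries glutamine, had 52.9 and 55.4 CPM in Con and 52.1 and 52.0 CPM in Fat (log2 fold change -0.06, 95% interval -0.19 to 0.08, adjusted p = 0.598). Slc1a4, its relative for alanine, serine and cysteine, had 3.66 and 2.91 CPM in Con and 3.32 and 3.44 CPM in Fat, with overlap (0.05, 95% interval -0.33 to 0.43). Slc1a3, a glutamate importer, had 24 and 28 reads in Con and 30 and 37 in Fat (0.20, 95% interval -0.38 to 0.79). The family therefore gave no call, and the interval of Slc1a5 ended at 0.08, well below the value of Slc6a8.

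Of the Slc43a carriers, Slc43a2 was the most abundant, with 547 and 510.3 CPM in Con and 517 and 550.0 CPM in Fat. The media overlapped (log2 fold change 0.01, 95% interval -0.14 to 0.17). Slc43a3, which carries purine nucleobases and not amino acids, had 10.5 and 10.8 CPM in Con and 8.84 and 7.59 CPM in Fat. Both Fat libraries were below both Con libraries (means 10.6 ± 0.251 and 8.21 ± 0.888 CPM, SD, n = 2 each), with a log2 fold change of -0.37 (standard error 0.11, 95% interval -0.63 to -0.12, limma adjusted p = 0.0807). Leaving out each library in turn gave -0.48 to -0.26 for Slc43a3, and none of these fits called it. Slc43a1, a relative of Slc43a2, had 23 and 21 reads in Con and 27 and 36 in Fat (0.32, 95% interval -0.31 to 0.96).

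The remaining 15 carriers were too low to test, with at most 8 reads in any library, or 0.236 CPM. Among them were Slc1a1, Slc1a2, Slc1a6, Slc1a7, Slc3a1, Slc6a2, Slc6a11, Slc6a15, Slc7a10, Slc7a13, Slc7a15, Slc36a3, Slc38a3 and Slc38a11. The group held the neuronal and glial glutamate carriers Slc1a1 and Slc1a2, the noradrenaline transporter Slc6a2 and the GABA carrier Slc6a11. Summed over the libraries, Slc1a6 ranked first, with 4 and 7 reads in Con and 6 and 8 in Fat. Next came Slc36a3, with 6 and 4 in Con and 2 and 8 in Fat. Slc6a15 followed, with 2 and 6 in Con and 3 and 7 in Fat, and Slc1a1 and Slc1a2 were close behind. In 8 of the 15, no library had more than 3 reads, the limit that a count of 0 allows. Slc7a10, a member that adipocytes are known to express, had 0 and 0 reads in Con and 0 and 1 in Fat, beside the adipocyte marker reads in Fat given above. The part of adipocyte RNA and of the lower macrophage markers in the values of the other carriers was not tested.

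The 2 genes of the same families left out by the selection were measured in the same fit. Slc7a11, the cystine and glutamate exchanger that feeds glutathione synthesis, had 119.7 and 102 CPM in Con and 148 and 135 CPM in Fat (log2 fold change 0.36, 95% interval 0.16 to 0.56, limma adjusted p = 0.0451). This call was lost without Con replicate 2 (adjusted p = 0.0926), without Fat replicate 1 (0.127) and without Fat replicate 2 (0.0510). For Slc7a11 it was also lost without the filter (0.0576), at a mean of at least 5 CPM (0.0540), with TPM (0.0832) and without the trend (0.186, all limma adjusted p). Slc7a2, an arginine importer, had 34.7 and 33.1 CPM in Con and 42.5 and 36.4 CPM in Fat (0.21, 95% interval 0.02 to 0.41, adjusted p = 0.174). Among 17 tested carriers of amino acids and their derivatives outside the 47, which include these 2 genes, limma called 2 higher and 0 lower. That is 11.8% of the 17, beside 9.0% of all genes tested. At an unadjusted limma p under 0.05, 3 were higher and 2 lower, beside 24.1% of all genes in either direction. edgeR and DESeq2 called 2 higher and 0 lower each. The other call was Slc16a10, a carrier of aromatic amino acids, with 129 and 113 CPM in Con and 158 and 159.6 CPM in Fat (0.39, 95% interval 0.23 to 0.56, adjusted p = 0.0189). The call of Slc16a10 was lost without Fat replicate 2 (log2 fold change 0.39) and without the mean-variance trend (limma adjusted p = 0.130).

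Of the enzymes that make or break down amino acids and their products, 7 of 33 tested (21.2%) were called, 3 higher and 4 lower in Fat, beside 9.0% of all genes tested. The median log2 fold change of the 33 was 0.02. Glul, glutamine synthetase, had 464 and 426 CPM in Con and 961 and 1008 CPM in Fat (1.15, 95% interval 0.99 to 1.30, limma adjusted p = 0.000632), so each Fat library was above each Con library by a wide gap. Ckb, the creatine kinase that charges the creatine which Slc6a8 brings in, had 229 and 357 CPM in Con and 517 and 617 CPM in Fat (0.98, 95% interval 0.55 to 1.42, adjusted p = 0.0211). Its Con libraries were far apart, and DESeq2 gave an adjusted p of 0.0505. Without the mean-variance trend the call of Ckb was lost (limma adjusted p = 0.143) and that of Glul was kept (0.0482).

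The lower enzymes included some at few CPM. Kynu, kynureninase of tryptophan breakdown, had 2.74 and 2.96 CPM in Con and 1.58 and 0.829 CPM in Fat (log2 fold change -1.24, adjusted p = 0.0386), and it lost its call without Con replicate 1 (adjusted p = 0.0782), without Con replicate 2 (0.0788) or without Fat replicate 2 (0.0826), and also with TPM (0.0775) or without the filter (0.0597). Hal, histidine ammonia-lyase, had 4.30 and 4.42 CPM in Con and 2.01 and 2.54 CPM in Fat (-0.92, adjusted p = 0.0173). The other 3 called enzymes are named after their values were seen. Gatm, which catalyses the first step of creatine synthesis, had 69.1 and 70.6 CPM in Con and 42.5 and 32.7 CPM in Fat (-0.90, 95% interval -1.17 to -0.64, adjusted p = 0.00553). Bcat2, the mitochondrial branched-chain aminotransferase, was lower by a smaller step (-0.40, adjusted p = 0.00771). Gclc, the catalytic subunit of the first enzyme of glutathione synthesis, was higher (0.57, adjusted p = 0.00514). Without the mean-variance trend, Kynu, Hal, Gatm, Bcat2 and Gclc all lost their calls (limma adjusted p between 0.0831 and 0.141).

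**Figure D4:**
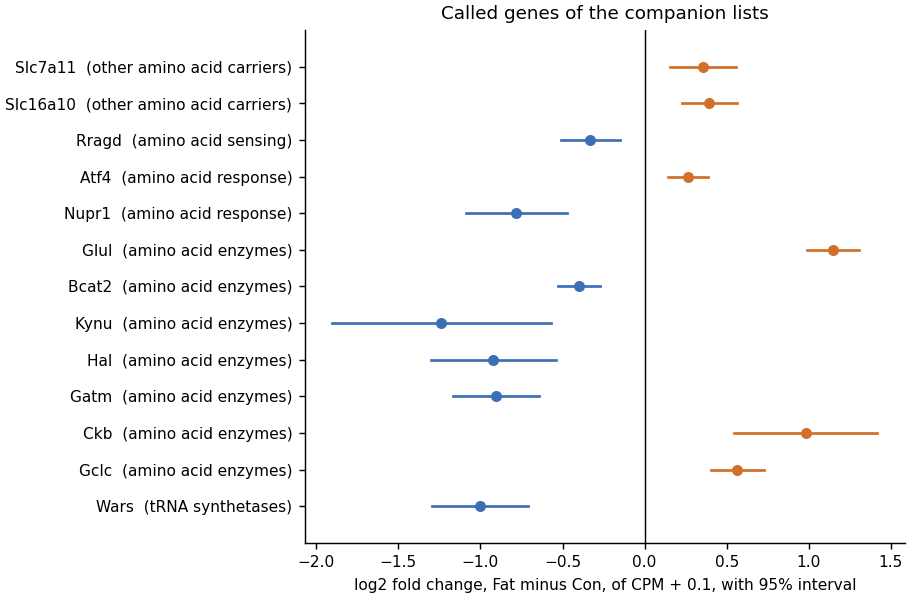
Log2 fold change of CPM + 0.1, Fat minus Con, with its 95% interval, for the 13 called genes of the lists of other carriers, sensing, response, enzyme and tRNA synthetase genes; orange is higher and blue lower in Fat. Glul, at 1.15, and Kynu, at -1.24, stood at the ends of the range.

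Genes of the response to amino acid shortage gave 1 call in each direction among 23 tested, 8.70% beside 9.0% of all genes tested, with a median log2 fold change of 0.08. At an unadjusted limma p under 0.05 there were 5 higher and 1 lower, beside 24.1% of all genes in either direction. Atf4, the transcription factor at the head of this response, had 145 and 140.0 CPM in Con and 173 and 169 CPM in Fat (0.26, 95% interval 0.14 to 0.38, limma adjusted p = 0.0249). The Atf4 call was lost without Con replicate 2 (adjusted p = 0.0581), without Fat replicate 1 (0.0913) or without Fat replicate 2 (0.0863). Nupr1, a stress-induced nuclear cofactor, had 5.96 and 5.30 CPM in Con and 3.19 and 3.27 CPM in Fat (-0.78, limma adjusted p = 0.0150). The Nupr1 call was lost without Con replicate 1 (log2 fold change -0.70). Without the mean-variance trend neither Atf4 nor Nupr1 was called (limma adjusted p = 0.136 and 0.0829).

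Among 31 tested genes of amino acid sensing by mTORC1, 0 were called higher and 1 lower, 3.23% beside 9.0% of all genes tested. At an unadjusted limma p under 0.05, 4 were higher and 3 lower, beside 24.1% of all genes in either direction. edgeR called 0 higher and 2 lower, and DESeq2 called 0 higher and 1 lower. The gene limma called was Rragd, a Rag GTPase that recruits mTORC1 to the lysosome, with 21.9 and 23.6 CPM in Con and 17.8 and 18.3 CPM in Fat (log2 fold change -0.33, adjusted p = 0.0389). It was not called in any of the fits that left out 1 library, where adjusted p-values lay between 0.0630 and 0.138, nor with TPM (0.103), without the trend (0.119) or by DESeq2 (0.0554). The gene that DESeq2 called was Sesn1, named after its values were seen, with 117 and 127 CPM in Con and 102 and 105 CPM in Fat (log2 fold change -0.24, limma adjusted p = 0.0520, DESeq2 adjusted p = 0.0349, edgeR adjusted p = 0.0469). Rragc had the highest mean CPM of the sensing genes. It was at 226 and 225 CPM in Con and 223 and 214 CPM in Fat (log2 fold change -0.04, 95% interval -0.17 to 0.08). Fnip2, which with folliculin acts on the Rag GTPases, had 193 and 204 CPM in Con and 243 and 223 CPM in Fat (0.23, 95% interval 0.08 to 0.38, adjusted p = 0.0679).

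Of the 20 cytosolic tRNA synthetases, which load amino acids onto their tRNAs, 0 were called higher and 1 lower, 5% beside 9.0% of all genes tested. At an unadjusted limma p under 0.05, 1 was higher and 1 lower, beside 24.1% of all genes in either direction. edgeR and DESeq2 called 0 higher and 1 lower each. Wars, for tryptophan, had 104 and 104 CPM in Con and 60.3 and 44.6 CPM in Fat (log2 fold change -1.003, 95% interval -1.29 to -0.71, adjusted p = 0.00553). Its call was lost without the mean-variance trend (limma adjusted p = 0.0891). The synthetases of highest mean CPM had intervals that included 0. Nars, for asparagine, was at 0.07 (95% interval -0.06 to 0.20) and Eprs, for glutamate and proline, at 0.08 (95% interval -0.04 to 0.20).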

How the data were processed

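Bulk polyA RNA of 4 macrophage libraries (Con and Fat, n = 2 each) was sequenced by the authors as single reads of 75 bases. The CPM values deposited by the authors were used as the main measure, and the TPM values deposited by the authors for levels between genes and in 1 alternative. The submitters' processing notes name build GRCm39. The aligner, annotation and strand setting were not given in the sources used here. Groups came from the labels' titles, read with the series' design text.

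All CPM values (100%, tolerance 1e-06) were whole multiples of 1 read, so reads were recovered. Genes with at least 0.5 CPM in 2 of 4 libraries (12470) entered a limma fit (version 3.58.1, R 4.3.3) of log2(CPM + 0.1) with a mean-variance trend. Tests were two-sided, p-values were adjusted over all of these genes by Benjamini-Hochberg, and calls were made at an adjusted p under 0.05. A fold change on this scale understates the change of low genes. From the recovered reads of these genes, the quasi-likelihood test of edgeR 4.0.16 called 1138 and DESeq2 1.42.0 called 1060, against 1122 by limma.

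The carriers, companion lists and markers were chosen with earlier results of these data known. Of the 15 carriers under the filter, 1 is not reported here. Every tested carrier was named, and from each companion list up to 4 called genes of largest change and, with fewer than 2 calls, the 2 of highest mean CPM. The fit was repeated with a replicate block, without the trend, with 1 CPM as pseudocount, with median-ratio scaling, without a filter, with a filter on a mean of 5 CPM, and with each library left out. The fits were tested on simulated data. Sharing of sequence was searched with BWA 0.7.19 on GENCODE transcripts of GRCm38, in stretches of 75 bases at steps of 5 with up to 2 mismatches, and promoter coordinates are those of GRCm38.p6. Python 3.11.15, numpy 2.4.6, pandas 2.3.3 and matplotlib 3.10.9 were used.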

Additional observations from a re-analysis of the deposited data

How the results depend on the processing

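The call of Slc6a8 was kept under each alternative but the fit without the mean-variance trend, and no called carrier changed sign. Carriers called higher numbered 1, with 0 without the trend, 2 with DESeq2, 2 with the replicate block (Slc38a2 added, adjusted p = 0.000438) and 1 to 2 with each library left out. Carriers called lower numbered 0, with 1 under the replicate block (Slc43a3, adjusted p = 0.0119) and 0 to 1 with each library left out. Over all genes 1122 were called, with 2520 under the replicate block, 31 without the trend and 529 to 1131 with each library left out (666 without Con replicate 1 and 529 without Fat replicate 2). The deviations of libraries with the same number correlated at 0.20 across genes. The labels do not say that replicate numbers mark shared material and there are only 2 pairs, so the numbers were not taken to pair the libraries, and the replicate block stands as an alternative.

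Called genes of the companion lists moved as follows. Other carriers (2) numbered 1 without the filter, 1 at a mean of at least 5 CPM, 1 with TPM, 6 with the replicate block, 0 without the trend and 0 to 2 with each library left out. Sensing genes (1) numbered 0 with TPM, 2 with median-ratio scaling, 2 with edgeR, 4 with the block, 0 without the trend and 0 to 1 with each library left out. Response genes (2) numbered 1 at a mean of at least 5 CPM, 7 with the block, 0 without the trend and 1 to 3 with each library left out. Enzymes (7) numbered 2 and tRNA synthetases (1) numbered 0 without the trend. Of those 2 enzymes only Glul was among the 7 (limma adjusted p = 0.0482), and the other was not called in the main fit. Glul was the only called gene of the companion lists that kept its call without the trend. The median log2 fold change of the tested carriers (0.0350) was 0.0507 without the filter, 0.0168 at a mean of at least 5 CPM, 0.0654 with TPM and -0.0173 to 0.0767 with each library left out. Of 404 values of single carriers under alternatives, 374 kept their sign and side of the threshold, 24 uncalled values changed sign (in 11 carriers), 5 gained and 1 lost a call. DESeq2 gave no adjusted p for Slc1a3, Slc7a3, Slc6a13, Slc6a17, Slc6a19, Slc38a4 and Slc43a1. The cause of these differences was not tested. With 2 libraries per medium, intervals were wider for the 12 carriers under 5 CPM, as given with their values.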

Other observations

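Slc6a6, Slc6a12 and Slc38a2 are also known as carriers that cells use under osmotic stress. Other genes of that kind were looked at after their values and those of the carriers had been seen. Slc5a3, the myo-inositol importer, had 15.5 and 14.0 CPM in Con and 24.5 and 27.3 CPM in Fat (log2 fold change 0.81, 95% interval 0.59 to 1.02, limma adjusted p = 0.00447). Akr1b3, aldose reductase, which makes the osmolyte sorbitol, had 41.2 and 44.1 CPM in Con and 65.5 and 56.0 CPM in Fat (0.51, 95% interval 0.31 to 0.70, adjusted p = 0.0145). Nfat5, the transcription factor that responds to hypertonicity, had 60.5 and 52.9 CPM in Con and 67.8 and 64.3 CPM in Fat (0.22, 95% interval 0.04 to 0.40, adjusted p = 0.124) and was not called. The carrier Slc6a12, of betaine, had overlapping values in both media. Without limma's mean-variance trend the calls of Slc5a3 and Akr1b3 were lost (limma adjusted p = 0.0831 and 0.112). Whether osmotic stress had a part in any of these values was not tested.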
